A study of Mus musculus with 2 samples.

Results

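The 9 genes described here, Ms4a1, Ms4a3, Ms4a4a, Ms4a4b, Ms4a4c, Ms4a6b, Ms4a6c, Ms4a6d and Ms4a7, are paralogs of the MS4A family and were taken by name from the 16819 gene symbols of a single-cell RNA-seq matrix of 2668 CD45+ cells from mouse dorsal root ganglia (DRG). The cells came from 3 male wild-type BALB/cAnNRj mice that were naive. Every group compared among these cells was thus a cell class within the same untreated animals. The study's methods give a minimum age for its mice in general, with no age for these animals. Ganglia were digested with enzymes, CD45+ live cells were sorted, each mouse was marked with a hashtag antibody, and all cells were loaded into 1 lane of a droplet system that counts 3′ ends of transcripts. A larger matrix of the same lane also held 1073 cells with the hashtags of 3 female mice under the same filters. These served as further replicates and for a comparison of the sexes. For its sequencing experiment the study's methods name BALB/cAnNRj mice, and they describe no treatment or mutant line in it. A level is given as CPM, the unique molecular identifiers (UMIs) of a gene per 1000000 UMIs of a mouse's cells of 1 class, and the mouse was the replicate (n = 3). A UMI counts 1 captured transcript end, so levels were not divided by transcript length.

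MS4A proteins cross the plasma membrane several times and are expressed mostly in blood and immune cells, where several members sit in complexes with receptors. Ms4a1 encodes CD20, the B cell surface protein, Ms4a3 is known from granulocyte and monocyte progenitors, and Ms4a4b from T cells. Ms4a4a, Ms4a6b, Ms4a6c, Ms4a6d and Ms4a7 are known from monocytes and macrophages, and Ms4a7 is used as a marker of macrophages at the borders of the nervous system. The genes lie side by side, a typical arrangement for paralogs that arose by duplication.

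All 9 genes lay on chromosome 19 (GRCm38, GENCODE M21), between positions 11249675 and 11640851, a span of 391.2 kb. Ms4a1 (11249675 to 11266241), Ms4a7 (11321039 to 11336146), Ms4a6d (11586604 to 11604849) and Ms4a3 (11629496 to 11640851) were on the minus strand. Ms4a4a (11375523 to 11392790), Ms4a4c (11404770 to 11427246), Ms4a4b (11443553 to 11467055), Ms4a6c (11469366 to 11482192) and Ms4a6b (11516512 to 11531256) were on the plus strand. Ms4a4c and Ms4a4b were 16306 bases apart and Ms4a4b and Ms4a6c 2310 bases apart, yet these neighbours were highest in different classes of cells, as described below.

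The promoter windows of the closest pairs are shown because Ms4a4b and Ms4a4c differed in lineage while Ms4a6b and Ms4a6c were both detected in most macrophages and monocytes. RefSeq windows from 250 bases before to 50 bases after the start were found for 7 of the 9 genes (GRCm38.p6), and none was found for Ms4a1 and Ms4a6d. The windows are Ms4a4b chr19:11443308-11443607, Ms4a4c chr19:11407411-11407710, Ms4a6b chr19:11518309-11518608 and Ms4a6c chr19:11469118-11469417, all on the plus strand and printed 5′ to 3′. Capitals mark GGAAGT on either strand (read as ACTTCC on the other), letters that contain the GGAA core recognised by ETS factors, a family that includes the myeloid and B cell factor PU.1.
Ms4a4b: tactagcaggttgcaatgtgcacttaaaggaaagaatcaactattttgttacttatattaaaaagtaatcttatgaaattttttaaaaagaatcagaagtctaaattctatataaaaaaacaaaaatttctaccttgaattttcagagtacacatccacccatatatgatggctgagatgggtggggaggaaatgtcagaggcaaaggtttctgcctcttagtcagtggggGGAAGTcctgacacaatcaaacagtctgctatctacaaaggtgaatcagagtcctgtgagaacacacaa
Ms4a4c: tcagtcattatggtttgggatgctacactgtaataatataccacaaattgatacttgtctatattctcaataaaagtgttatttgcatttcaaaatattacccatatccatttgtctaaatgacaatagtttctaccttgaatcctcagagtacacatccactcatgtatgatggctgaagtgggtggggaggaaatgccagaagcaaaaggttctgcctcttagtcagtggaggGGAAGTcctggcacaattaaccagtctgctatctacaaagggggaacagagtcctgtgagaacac
Ms4a6b: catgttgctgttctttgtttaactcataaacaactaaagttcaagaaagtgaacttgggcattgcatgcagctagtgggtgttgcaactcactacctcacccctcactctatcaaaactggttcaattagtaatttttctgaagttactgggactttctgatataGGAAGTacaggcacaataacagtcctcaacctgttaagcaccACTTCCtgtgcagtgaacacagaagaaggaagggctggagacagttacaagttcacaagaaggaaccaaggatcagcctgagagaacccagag
Ms4a6c: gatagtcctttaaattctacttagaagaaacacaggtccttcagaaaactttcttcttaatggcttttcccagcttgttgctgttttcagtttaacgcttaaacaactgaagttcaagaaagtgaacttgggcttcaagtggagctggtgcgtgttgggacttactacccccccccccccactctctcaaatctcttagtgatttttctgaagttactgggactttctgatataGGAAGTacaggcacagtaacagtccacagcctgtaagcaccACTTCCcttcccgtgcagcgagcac
Over 282 aligned bases, 80.9% were identical between the Ms4a4b and Ms4a4c windows, with a longest shared run of 20 bases. Over 220 aligned bases, 85.9% were identical between Ms4a6b and Ms4a6c, with a longest shared run of 48 bases. In the other 19 of 21 pairs of windows the longest shared run was 7 to 12 bases. GGAAGT was found in 6 of the members' 8 windows (Ms4a7 has 2), against 23.8% of all 32851 windows. Of the 7 genes with a window, only Ms4a4a lacked it. The windows of Ms4a4b, Ms4a4c, Ms4a6b and Ms4a6c are among the 6. Each of these pairs shares much of its sequence, so the 6 are not independent matches and no enrichment is drawn from them. A second motif searched in the same windows was found in 0 of the 8, against 3.44% of all windows. A match is a description of letters and not evidence of binding.

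The annotated transcripts of these paralogs also shared exact runs, which bears on how reads were assigned. The longest transcripts of Ms4a4b and Ms4a4c shared a run of 127 bases, those of Ms4a6b and Ms4a6c a run of 96 bases, and those of Ms4a6b and Ms4a6d a run of 81 bases. The 96-base run lay within the last 500 bases of Ms4a6c, next to the end that the assay reads, and a run of 86 bases of the last 500 bases of Ms4a4c was found elsewhere in Ms4a4b. Levels of these pairs are therefore uncertain to the extent that such reads were discarded or split, which was not tested.

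Cells were placed in classes by marker genes that include no Ms4a gene. Macrophages had at least 0.5% of their UMIs from C1qa, C1qb and C1qc (1442 cells) and were divided by whether they had a UMI of Fcrls, of Ccr2, of both or of neither (655, 154, 567 and 66 cells). The other classes were monocytes (114 cells), dendritic cells (DCs, 94), neutrophil precursors (13), later neutrophils (277), B cells (160) and T cells (76). The 164 cells past no gate stayed unnamed, and 328 cells past more than 1 gate were left out, 283 of them neutrophils that passed the T cell gate through Cd3d (1366 UMIs, with 0 of Cd3e and 0 of Trac). Macrophage markers outside the gate (Csf1r, Cx3cr1, Adgre1, Fcgr1 and Mrc1) summed to 2238 to 4214 CPM in the 4 macrophage classes and to at most 598 CPM in any other class with a name. Marker lists for neutrophils, B cells and T cells also peaked in their class, but the other class lists were less clear. Monocyte genes (Fn1, Chil3, F13a1, Itgal) summed to 1792 to 1936 CPM in monocytes but 2127 to 2807 CPM in later neutrophils. DC genes (Itgax, Batf3, Irf8, Cd24a) summed to 736 to 962 CPM in DCs but 1258 to 1652 CPM in B cells. Precursor genes (Ctsc, Srgn, Cebpe) overlapped, with 2979 to 5231 CPM in precursors and 3152 to 4260 CPM in later neutrophils. The T cell gate also took in cells with natural killer genes, since Ncr1 was at 139.8 CPM there, pooled. Mice gave between 4239463 and 13508078 UMIs, and the median cell had 8283.5 UMIs, but later neutrophils (median 3376) and B cells (3407) were shallower than macrophages (8466 in Fcrls-only cells).

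By their levels the members divided into a macrophage gene (Ms4a7), genes shared by macrophages and monocytes (Ms4a4a, Ms4a6b, Ms4a6c, Ms4a6d), a monocyte gene (Ms4a4c) and genes of neutrophil precursors (Ms4a3), B cells (Ms4a1) and T cells (Ms4a4b). Of the UMIs of Ms4a7 in the male cells, 94.5% were in macrophages, and of those of Ms4a1, 95.8% were in B cells. Ms4a4b was less confined, with 43.0% of its UMIs in T cells and 37.1% in the unnamed cells, some of which had a natural killer receptor (described below). For Ms4a4c the macrophages held 43.0% and the far fewer monocytes 42.0%. Ms4a6c was the most abundant member by UMIs (11351) and was detected in 63.5% of all male cells, whereas Ms4a4a had only 259 UMIs.

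**Figure D1:**
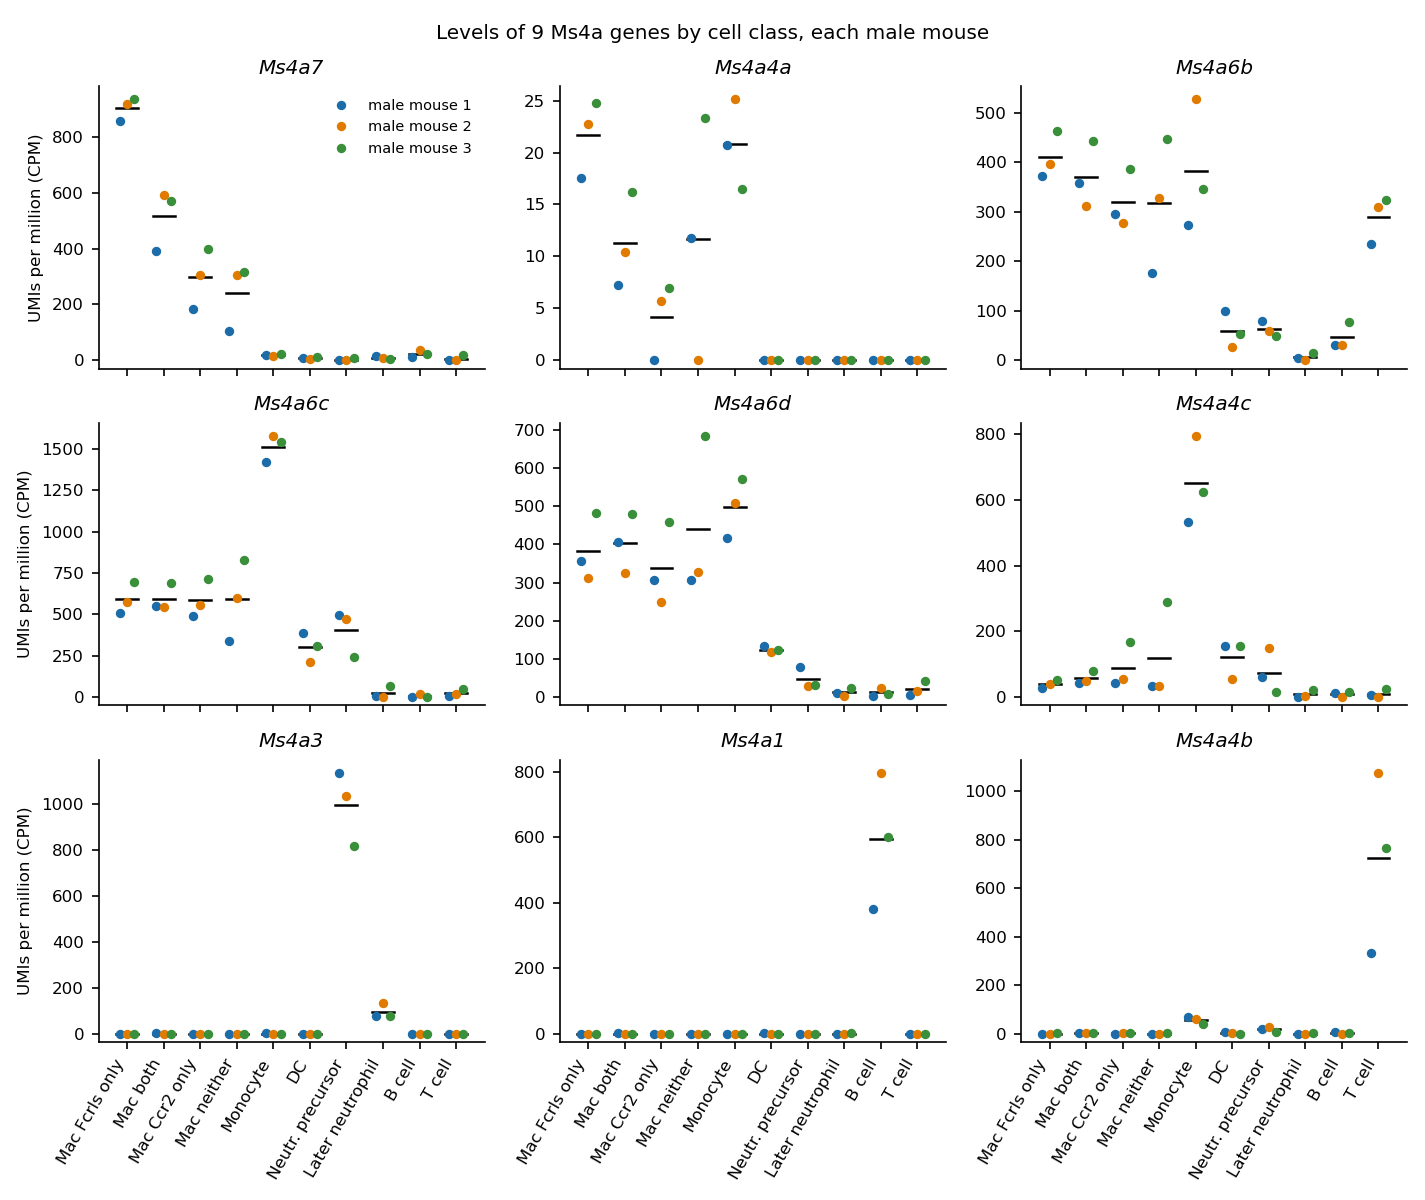
Levels of the 9 Ms4a genes in CPM (vertical axis, linear, its own scale in each panel) in 10 cell classes (horizontal axis). Points are the 3 male mice and bars their mean. Ms4a7 is high only in the 4 macrophage classes, Ms4a4c and Ms4a6c are highest in monocytes, and Ms4a3, Ms4a1 and Ms4a4b are each highest in 1 lineage (neutrophil precursors, B cells and T cells).

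Ms4a7 was the macrophage member and was graded with the markers that divide the macrophages. In Fcrls-only macrophages it stood at 856 CPM in mouse 1, 917 in mouse 2 and 935 in mouse 3. In macrophages with both UMIs it stood at 391, 590.3 and 569 CPM, and in Ccr2-only macrophages at 185, 306 and 399.6 CPM. Fcrls-only macrophages were thus above both other classes in every mouse, without overlap, while the ranges of the classes with both and with Ccr2 alone overlapped. The 66 macrophages with neither UMI had a mean of 242 CPM (106 to 317 over the mice). Outside the macrophages the mean level of Ms4a7 in a named class was at most 23.9 CPM, in B cells.

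The comparison of Fcrls-only with Ccr2-only macrophages asks whether members differ between macrophages with the receptor-like gene Fcrls and macrophages with Ccr2, the chemokine receptor of monocytes that leave the blood. Ms4a7 was higher in Fcrls-only cells by 1.45 on the log2 scale (SE 0.23, edgeR quasi-likelihood test, Benjamini-Hochberg adjusted p = 8.49e-05, higher in 3 of 3 mice). It was the only one of the 8 members tested that passed in this direction, where 2.15% of the 6374 genes tested passed, and no member passed in the other direction, where 3.33% did. The median log2 fold of the 8 members was -0.02, against 0.02 over all genes tested. The filter on low counts ran over all classes, so the 8 include members with almost no UMIs in the classes compared. In Fcrls-only and Ccr2-only macrophages Ms4a1 had 0 and 1 UMIs and Ms4a3 had 3 and 0. Such genes had almost nothing to compare, which limits each count and median of listed genes here and below. The call of Ms4a7 held in all 14 alternative settings, with adjusted p between 1.35e-11 and 0.0179.

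Ms4a4c went the other way without passing the test. Its levels were 26.3, 39.7 and 52.2 CPM in the Fcrls-only macrophages of mice 1, 2 and 3 and 42.3, 54.3 and 167 CPM in their Ccr2-only macrophages, so it was lower in Fcrls-only cells in 3 of 3 mice while the ranges of the classes overlapped. The log2 fold was -1.39 (SE 0.45, adjusted p = 0.0666), and with the mouse as a replicate block it was -1.32 with an adjusted p of 0.0187. Without mouse 3, the mouse with the highest Ccr2-only level, it was -0.58 with an adjusted p of 0.696. In 11 random draws that thinned each cell to 2000 UMIs the log2 fold was between -1.62 and -0.73, and 2 of the 11 passed.

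Ms4a6b, Ms4a6c and Ms4a6d were at much the same level in both macrophage states, with log2 folds of 0.25 (SE 0.26), -0.10 (SE 0.30) and 0.05 (SE 0.25) and adjusted p of 0.751, 0.949 and 0.976. Ms4a6c had a mean of 594 ± 94.4 CPM (SD, n = 3) in Fcrls-only and 588 ± 114 CPM in Ccr2-only macrophages. Ms4a4a, the member with the fewest UMIs, did not pass the filter on low counts. Its UMIs were 132 in Fcrls-only macrophages (17.5, 22.7 and 24.8 CPM) and 7 in Ccr2-only macrophages (0, 5.71 and 6.91 CPM), a pooled ratio of 4.19 with a 95% counting interval of 1.98 to 10.6. The classes did not overlap, and Ms4a4a with no filter had a log2 fold of 1.96 (SE 0.55, adjusted p = 0.0184).

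The same pattern was seen when macrophages were ranked by UMIs instead of split at 1 UMI. Ms4a7 had a mean of 282 ± 112 CPM (SD, n = 3) in the 220 macrophages with 0 Fcrls UMIs, 594 ± 149 CPM in the 297 with 3 to 5 and 1027 ± 181 CPM in the 365 with 10 or more. By Ccr2 it ran from 849 ± 66.1 CPM at 0 UMIs to 306 ± 89.7 CPM at 6 or more. Ms4a4c ran from 94.7 ± 87.1 CPM at 0 Fcrls UMIs to 30.3 ± 1.57 CPM at 10 or more, and from 44.7 ± 20.6 CPM at 0 Ccr2 UMIs to 88.5 ± 18.0 CPM at 6 or more. Cells with more Fcrls UMIs were also deeper, with a median of 10259 UMIs at 10 or more and 7819 at 0, and the part of depth in this ranking was not tested. When every cell was thinned to 2000 UMIs, 67.2% to 72.2% of Fcrls-only, 46.0% to 53.1% of doubly marked and 26.6% to 36.5% of Ccr2-only macrophages kept a UMI of Ms4a7 over 11 draws (means of the 3 mice, unthinned 89.6%, 75.6% and 59.4%), against at most 4.47% of monocytes.

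**Figure D2:**
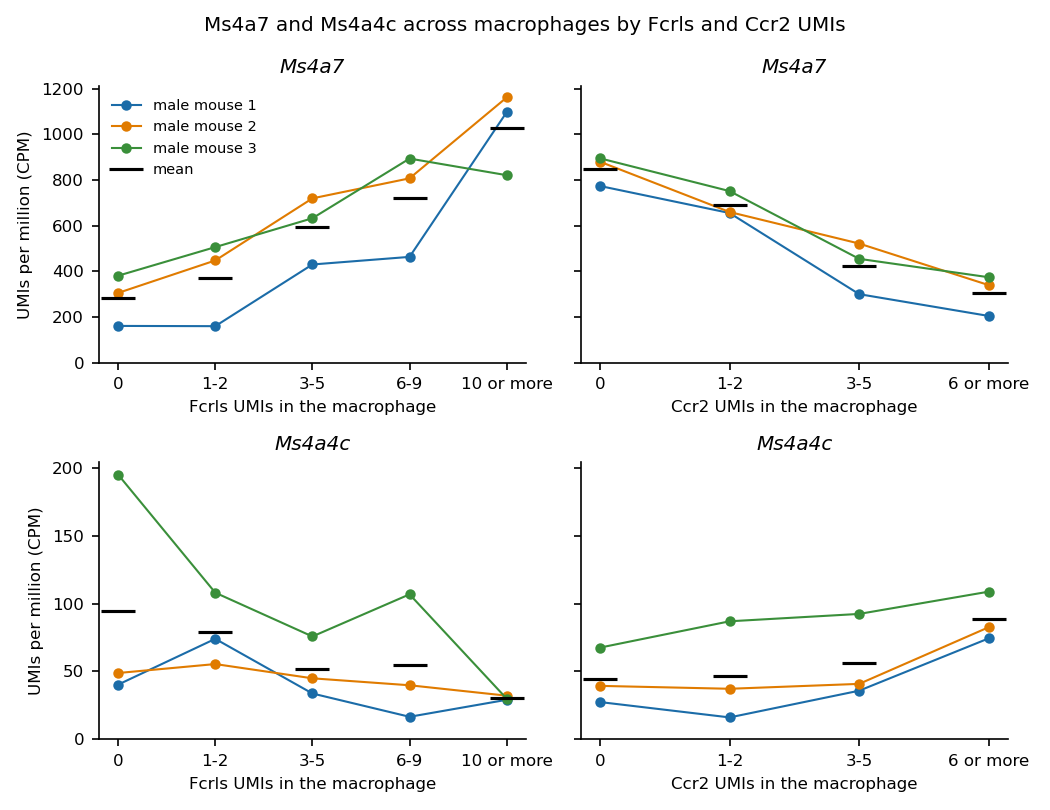
Levels of Ms4a7 (top) and Ms4a4c (bottom) in CPM (vertical axes from 0) in macrophages binned by their UMIs of Fcrls (left) and Ccr2 (right). Coloured points joined by lines are the 3 male mice and black bars their means. Mean Ms4a7 runs from 282 to 1027 CPM with Fcrls UMIs and from 849 to 306 CPM with Ccr2 UMIs, and the Ms4a4c points of mouse 3 lie above the other mice in all bins but the one with 10 or more Fcrls UMIs.

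Macrophages and monocytes differed in which members they carried. Ms4a7 was at 17.8, 15.1 and 21.5 CPM in the monocytes of mice 1, 2 and 3, and the log2 fold of macrophages (the mean of the 3 classes with a UMI of Fcrls or Ccr2) over monocytes was 5.12 (SE 0.32, adjusted p = 1.39e-14). Of the classes in the fit only the macrophage classes held Ms4a7 at a high level, so it passed the filter on low counts through them. Its p-value against monocytes therefore adds no support beyond the levels. Ms4a7 was the only member higher in macrophages, a direction in which 20.6% of all genes tested passed. Ms4a4c, Ms4a4b and Ms4a6c were higher in monocytes, a direction in which 18.7% passed. The median log2 fold of the members was -0.51, against 0.02 over all genes tested. It includes Ms4a1, with 3 UMIs in these macrophages and 0 in monocytes, and Ms4a3, with 2 UMIs in monocytes.

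Ms4a4c was at 533, 795 and 625 CPM in monocytes, above the highest value in any macrophage class (289 CPM, in the cells of mouse 3 with neither marker). Its log2 fold was -2.97 (SE 0.29, adjusted p = 3.86e-10), lower in macrophages in 3 of 3 mice. Ms4a6c, the largest member by UMIs in monocytes, was at 1419, 1579 and 1539 CPM there, and macrophages were lower by a log2 fold of -0.98 (SE 0.23, adjusted p = 8.49e-04). Ms4a6b (0.34, SE 0.23, adjusted p = 0.243) and Ms4a6d (-0.05, SE 0.21, adjusted p = 0.897) did not pass, and their ranges in monocytes (273 to 528 CPM and 418 to 572 CPM) overlapped those in macrophages. Ms4a4a was at 20.7, 25.1 and 16.4 CPM in monocytes, overlapping the range in Fcrls-only macrophages.

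Ms4a4b had a smaller level in monocytes, at 71.1, 60.4 and 43.0 CPM, and was lower in macrophages by a log2 fold of -3.75 (SE 0.42, adjusted p = 8.55e-09). Because Ms4a4b and Ms4a4c share long runs, the UMIs of Ms4a4b are given as a share of those of Ms4a4c: 8.41% in monocytes (70 of 832), 5.10% in Fcrls-only macrophages, 2.70% in Ccr2-only macrophages and 2.31% in DCs. Outside monocytes these shares rest on few UMIs of Ms4a4b. Whether they differ between classes, and whether reads of Ms4a4c contribute to them, was not tested.

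DCs, which present antigen to T cells, carried less of the macrophage members. Ms4a7 was at 6.66, 5.86 and 10.2 CPM in the DCs of mice 1, 2 and 3, and Ms4a4a had 0 UMIs in 94 DCs, so that macrophages with a UMI of Fcrls or Ccr2 (215 UMIs) were at least 7.59-fold higher when 3 UMIs over the pooled DCs are taken as the floor. In the test against macrophages 4 of 8 members were higher in macrophages, where 16.8% of all genes tested were: Ms4a7 (log2 fold 6.02, SE 0.37, adjusted p = 8.58e-15), Ms4a6b (2.71, SE 0.30, adjusted p = 4.93e-09), Ms4a6d (1.65, SE 0.25, adjusted p = 2.25e-06) and Ms4a6c (1.04, SE 0.27, adjusted p = 0.00263). Ms4a7 passed the filter on low counts through the macrophage classes, so its p-value here too adds no support beyond the levels. The median log2 fold of the members was 1.19, against 0.01 over all genes. It includes Ms4a1, with 3 UMIs in these macrophages and 1 in DCs, and Ms4a3, with 0 UMIs in DCs. In the other direction, where 16.5% of genes passed, Ms4a4c was lower in macrophages by a log2 fold of -0.92 (SE 0.36, adjusted p = 0.0478).

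The call of Ms4a4c against DCs was close to the threshold. Without mouse 1 the log2 fold of Ms4a4c was -0.69 with an adjusted p of 0.223, DESeq2 gave an adjusted p of 0.276, and 3 of 11 draws of thinned cells passed. The call of Ms4a6c was lost in 1 of 14 alternatives, without mouse 2 (0.89, adjusted p = 0.0501). Within the DCs the members were not even: cells with at least 2 UMIs of Cd209a, a gene of type 2 DCs, held Ms4a4c at 239 CPM, Ms4a6c at 486 CPM and Ms4a6d at 223 CPM (45 cells), while cells with at least 2 UMIs of Xcr1 and Clec9a together, genes of type 1 DCs, held them at 22.4, 106 and 27.2 CPM (43 cells). In each mouse all 3 genes were higher in the Cd209a cells, a division chosen after the values were seen and given with no test.

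**Figure D3:**
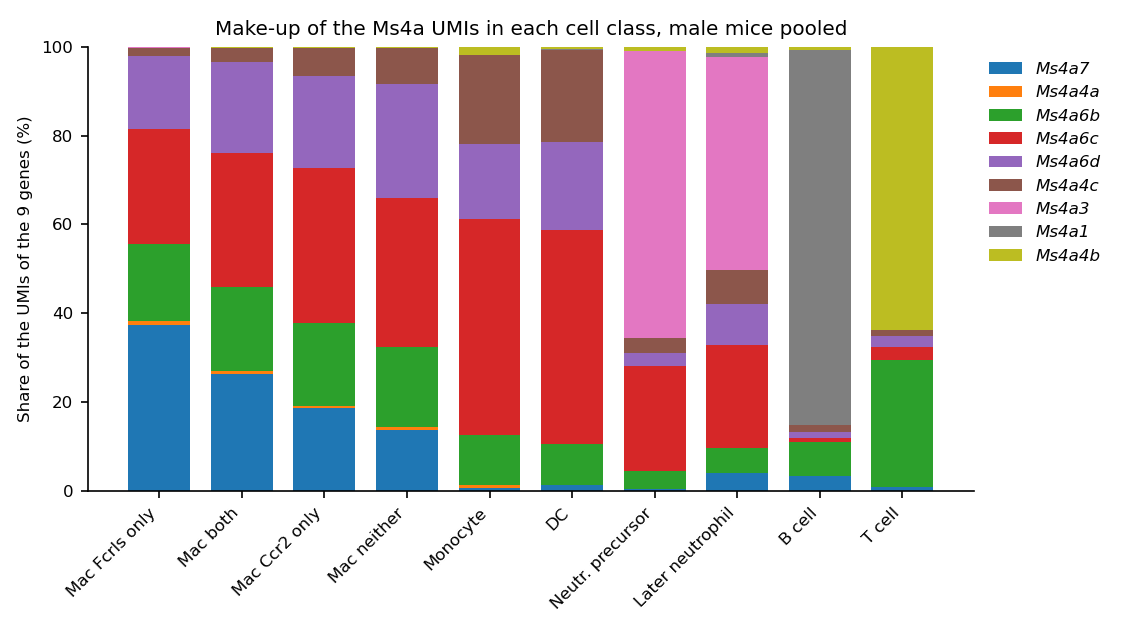
Share of the UMIs of the 9 Ms4a genes that each gene contributes (vertical axis, % from 0 to 100) in 10 cell classes (horizontal axis), male mice pooled. Ms4a7 makes up 37.3% in Fcrls-only macrophages, 18.7% in Ccr2-only macrophages and 0.63% in monocytes, while Ms4a1 makes up 84.6% in B cells, Ms4a3 64.5% in neutrophil precursors and Ms4a4b 63.9% in T cells.

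Taking the 9 genes as a sum, monocytes carried the most Ms4a UMIs (3112 CPM, pooled). Fcrls-only macrophages had the most of the macrophage classes (2465 CPM) and Ccr2-only macrophages the least (1826 CPM), and of the 10 classes later neutrophils had the fewest (179.8 CPM). How often a single macrophage had a UMI of each of Ms4a6b, Ms4a6c, Ms4a6d and Ms4a7 differed between the classes. All 4 had a UMI in 72.9% ± 7.94 (SD, n = 3) of Fcrls-only and 64.2% ± 10.8 of doubly marked macrophages. The share was 42.3% ± 7.16 in Ccr2-only macrophages and 28.3% ± 25.6 in those with neither UMI. Each gene alone was detected in 88.5% to 95.6% of Fcrls-only macrophages. Whether they occurred together more often than separate detection gives was not tested. In monocytes 3 of the 4 were found in 70.5% ± 15.0 of cells and all 4 in 15.2% ± 0.825. In DCs 2 of them was the most frequent number (35 of 94 cells).

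Ms4a3 was highest in the cells classed as neutrophil precursors. That name rests on the granule genes of the gate. Pooled, these cells had Cebpe at 319 CPM (289 in later neutrophils) but Retnlg at 24.1 CPM (15164 in later neutrophils). F13a1 was at 324 CPM and Irf8 at 285 CPM in them, against 27.0 and 8.99 CPM in later neutrophils. Whether some were progenitors of monocytes was not tested. Neutrophil precursors, cells with primary granule genes such as Elane and Mpo, numbered 3, 3 and 7 in mice 1, 2 and 3 and were too few for a test. Ms4a3 was at 1138, 1036 and 819.8 CPM in them, and 10 of the 13 cells had a UMI (76.9%), with a median of 19 and a maximum of 31 UMIs per cell. Later neutrophils had it at 78.7, 133 and 76.2 CPM, below the precursors in every mouse, a pooled ratio of 10.8 with a 95% counting interval of 8.58 to 13.5 (193 and 135 UMIs). Nearly all of the later signal was in the 47 later neutrophils with secondary granule genes (Ngp, Camp and Ltf), which held 134 of the 135 UMIs (180.5 CPM). The other 230 later neutrophils had 1 UMI of Ms4a3, and they were shallower, with a median of 3093.5 UMIs per cell against 18136. A further 229 neutrophils with secondary granule genes were left out because they also passed the T cell gate. Ms4a3 was at 24.6 CPM in those 229 cells (70 UMIs, detected in 13.5% of cells). The level given for later neutrophils thus depends on that gate.

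Elsewhere Ms4a3 was near or at 0. Monocytes had 2 UMIs, a ratio of later neutrophils to monocytes of 57.5 with a counting interval of 15.6 to 479.9. The edgeR test called Ms4a3 lower in monocytes (adjusted p = 2.25e-08). Of the classes in the fit only later neutrophils held more than a few UMIs of Ms4a3. It thus passed the filter on low counts through the class where it was high, and the p-value adds no support beyond the levels. DCs, B cells and T cells had 0 UMIs, so precursors were at least 412-fold, 238-fold and 136-fold higher, with 3 UMIs over each pooled class as the floor. The 283 neutrophils that also passed the T cell gate had Ms4a3 at 44.5, 18.6 and 14.2 CPM. Precursors also carried Ms4a6c (499, 474 and 244 CPM, from 5 of the 13 cells), whereas later neutrophils had 7.62, 3.69 and 68.4 CPM.

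The comparison of monocytes with later neutrophils asks how the members divide between the myeloid cells that enter from blood. Ms4a4c, Ms4a4b, Ms4a6b, Ms4a6c and Ms4a6d were higher in monocytes, so 5 of 8 members passed where 22.7% of genes tested did, and Ms4a3 alone was higher in later neutrophils, where 21.3% did. The log2 folds of the 5 were 3.54 to 4.81, with adjusted p from 3.57e-11 for Ms4a6c to 1.25e-04 for Ms4a4b. The median over the 8 members was 3.84, against 0.02 over all genes. The 8 include Ms4a1, with 0 UMIs in monocytes and 2 in later neutrophils, and Ms4a3, which passed the filter on low counts through later neutrophils. Ms4a7 did not differ past the threshold (0.59, SE 0.65, adjusted p = 0.484), at a mean of 18.1 CPM in monocytes and 8.66 CPM in later neutrophils.

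Ms4a1, the CD20 gene, had 438 of its 457 UMIs in B cells. It was at 382, 797 and 602 CPM in the B cells of mice 1, 2 and 3, with a UMI in 48.1% of the 160 cells. T cells had 0 UMIs in 76 cells, which allows up to 3.95% of cells with a UMI and sets no limit on cells expressing the gene, and B cells were at least 83.0-fold higher with 3 UMIs over the pooled T cells as the floor. The 1376 macrophages with a UMI of Fcrls or Ccr2 had 3 UMIs of Ms4a1 in all. Ms4a1 was the only 1 of 8 members higher in B cells than in T cells (edgeR, adjusted p = 5.63e-10), where 8.41% of genes tested were. Nearly all of its UMIs were in B cells, so it passed the filter on low counts through the class where it was high. Its p-value therefore adds no support beyond the levels.

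Within the B cells Ms4a1 differed with the genes of precursors. In 39 B cells with a UMI of Rag1, Vpreb1, Igll1 or Dntt, genes of B cell precursors, Ms4a1 had 11 UMIs (36.0 CPM), all from mouse 1, and was detected in 5.13% of cells. In the other 121 it had 427 UMIs (924 CPM) and was detected in 62.0% of cells, with 687, 955 and 1051 CPM in mice 1, 2 and 3. The precursor-type cells were deeper, with a median of 4281 UMIs against 3279. This division too was chosen after the values were seen.

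The T cell class, unlike B cells, carried Ms4a4b, and it also carried Ms4a6b. Its gate took in cells with natural killer genes (Ncr1 at 139.8 CPM, pooled), and their part in these levels was not tested. Ms4a4b was at 333, 1075 and 763 CPM in the T cells of mice 1, 2 and 3, against 7.88, 0 and 2.84 CPM in B cells, a pooled ratio of 165 with a 95% counting interval of 55.8 to 804 (281 and 3 UMIs). Ms4a6b was at 236, 309.5 and 324 CPM in T cells and at 31.5, 30.9 and 76.7 CPM in B cells, and was lower in B cells by a log2 fold of -2.61 (SE 0.41, adjusted p = 1.18e-05). These 2 members passed in the direction of T cells, where 11.0% of genes tested did, and the median log2 fold of the 8 was -0.93, against 0 over all genes. Ms4a3, counted among the 8, had 0 UMIs in B cells and 0 in T cells. The level of Ms4a6b in T cells overlapped that in Ccr2-only macrophages. Ms4a6c, which lies 34319 bases from Ms4a6b with Gm8369 between them, was at 6.05, 16.3 and 47.7 CPM in T cells, below every macrophage class. Ms4a6b and Ms4a6c, whose promoter windows are printed above, thus parted in T cells, but not only there. Ms4a6b was also the higher in B cells (means of 46.4 and 7.12 CPM). It was the lower in monocytes (382 and 1513 CPM), DCs (60.1 and 303 CPM) and neutrophil precursors (62.6 and 405 CPM).

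The 3 female mice gave the same directions for the members called above, except that Ms4a3 was not tested in them. Ms4a7 in Fcrls-only macrophages was at 711, 882 and 725 CPM in females 1, 2 and 3 and in Ccr2-only macrophages at 87.2, 224 and 533 CPM, with a log2 fold of 1.47 (SE 0.38, adjusted p = 0.0157). Ms4a4c passed the test in the females with a log2 fold of -1.20 (SE 0.35, adjusted p = 0.0398). Female Ms4a4c in monocytes was at 989.6, 968 and 856 CPM, from only 7, 6 and 4 cells, and lower in macrophages by -3.74 (SE 0.22, adjusted p = 1.79e-15). Ms4a1 in female B cells was at 518, 642 and 789 CPM, and Ms4a4b in female T cells at 1197, 700.2 and 719 CPM. Female precursors numbered 2, 4 and 2 and had Ms4a3 at 2585, 734 and 1593 CPM. In a fit of both sexes, none of the 40 tests of a difference in log2 fold between male and female mice passed for a member (lowest adjusted p = 0.616, edgeR; 1 had an unadjusted p under 0.05). Some tests of Ms4a1 and Ms4a3 had almost no UMIs to compare and could not pass (SE up to 7353). Those with monocytes rest on females 1 and 2 only. For Ms4a4c between monocytes and later neutrophils even a difference of -6.54 (SE 3.31) did not pass. The count of 0 therefore does not show that the sexes are alike.

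**Figure D4:**
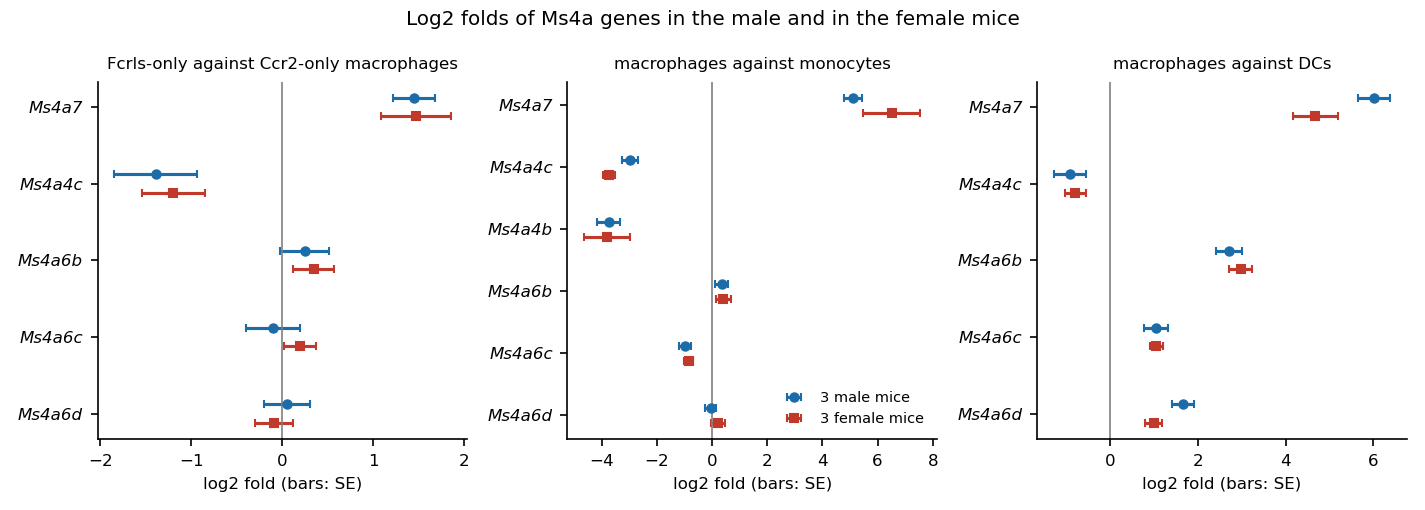
Log2 folds (horizontal axes, bars are the standard error) of Ms4a genes in 3 comparisons, fitted separately in the 3 male mice (blue circles) and the 3 female mice (red squares). The female monocytes are those of females 1 and 2 only. The called folds have the same sign in both sexes, with Ms4a7 at 1.45 and 1.47 between Fcrls-only and Ccr2-only macrophages. Ms4a4c in that comparison is at -1.39 in the male mice, where it was not called, and at -1.20 in the female mice.

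For each member the genes with the most similar pattern were ranked by Pearson correlation of log2(CPM + 10) over the 30 sums per mouse and class, which share mice, depth and the class differences themselves. Ms4a7 was most like Hpgds (r = 0.97), Cbr2 (0.96) and Abca1 (0.96). Ms4a6d was most like Cdkn1a (0.94), Ctsc (0.94) and Ctss (0.93), and Ms4a6c like Npc2 (0.94), Tifab (0.94) and Ifi202b (0.93). Tifab (0.85) was also among the closest to Ms4a4c, after Stx3 (0.88) and before Capn2 (0.84). Ms4a1 was most like Gm30211 and Iglc2 (0.998 each), Ms4a3 like Lta4h (0.94), Fcnb (0.92) and Cebpe (0.91), Ms4a4a like Colec12 (0.85), Parp12 (0.84) and Lipa (0.83), Ms4a6b like Bst2 (0.87), Ptpn18 (0.86) and Lpar6 (0.85), and Ms4a4b like Xcl1, Ctsw and Skap1 (0.89 each). Among the members, Ms4a6c and Ms4a6d were the closest pair (0.92) and Ms4a7 and Ms4a4c had an r of 0.11.

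Other genes of the superfamily also differed between the classes. Ms4a8a was a monocyte gene, at 77.0, 80.5 and 64.5 CPM in monocytes and at a mean of at most 4.17 CPM in the other named classes. The edgeR log2 fold of macrophages over monocytes was -5.57 (SE 0.48, adjusted p = 2.46e-10). Ms4a8a passed the filter on low counts through monocytes, where it was high, so its p-value adds no support beyond the levels. Ms4a14, which lies between Ms4a1 and Ms4a7, had 28 of its 41 UMIs in Fcrls-only macrophages. Tmem176a and Tmem176b, related membrane proteins, were higher in macrophages than in monocytes by 3.84 and 3.48 on the log2 scale (adjusted p = 3.37e-13 and 1.91e-12) and showed means of 253 and 286 CPM in T cells. Of the 3 such genes tested, 2 were higher in macrophages than in monocytes (20.6% of all genes tested were) and 1 was higher in monocytes (18.7%), with a median log2 fold of 3.48. Against DCs 2 were higher in macrophages (16.8%, median 1.27), and 3 were higher in monocytes than in later neutrophils (22.7%, median 2.31). In T cells 2 were higher than in B cells (11.0%, median of B over T cells -3.23), and none passed between the macrophage states (2.15% and 3.33%, median -0.48). Over all genes these medians were between 0 and 0.02. The 3 include Ms4a8a, which passed the filter on low counts through monocytes and had 0 UMIs in B cells and in T cells. Ms4a5, Ms4a10, Ms4a12, Ms4a13, Ms4a15 and Ms4a18 had 0 UMIs in the male and in the female cells.

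Genes whose proteins have been described with MS4A proteins differed in how far they were confined to a class. Fcer1g was broad, with means of 2664 CPM in Fcrls-only macrophages, 2322 CPM in monocytes and 1978 CPM in later neutrophils. Of 5 tested and reported, 2 were higher in macrophages than in monocytes, where 20.6% of all genes tested were, namely Trem2 (log2 fold 3.66, SE 0.22, adjusted p = 6.33e-15), a lipid-sensing receptor of microglia and macrophages, and Fcer1g (0.55, SE 0.16, adjusted p = 0.00701), the gamma chain of Fc receptors. Cdkn3, a phosphatase that binds the Ms4a3 protein, was higher in monocytes (-2.17, SE 0.59, adjusted p = 0.00403), where 18.7% of genes were, and the median log2 fold of the 5 was 0.02. Its mean in monocytes (26.0 CPM) was below those in later neutrophils (60.8 CPM) and B cells (64.9 CPM). Tnfrsf18, the T cell receptor GITR that associates with Ms4a4b, was lower in B cells (3 UMIs) than in T cells (55 UMIs). The edgeR log2 fold was -5.10 (SE 0.68, adjusted p = 7.45e-07). Tnfrsf18 passed the filter on low counts mainly through T cells (48.4 to 212 CPM, against 13.3 to 33.5 CPM in DCs). Its p-value therefore adds no support beyond the levels. Against DCs 2 of the 5 were higher in macrophages (16.8% of all genes tested) and 1 lower (16.5%), with a median of -0.17, and between Fcrls-only and Ccr2-only macrophages none passed (2.15% and 3.33%, median -0.06). Between monocytes and later neutrophils 2 were higher in monocytes (22.7%) and 2 in neutrophils (21.3%), with a median of -0.57. Between B and T cells 2 were higher in B cells (8.41%) and 2 in T cells (11.0%), with a median of -0.77.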

How the data were processed

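CD45+ DRG cells of 3 male and 3 female mice were hashtagged and run in 1 lane. The deposited matrices hold raw UMI counts. Per the labels the authors used Cell Ranger and Seurat with mm10, the larger matrix names Cell Ranger 3.1.0, the annotation release is not given in the sources used here, and the authors kept cells with more than 200 and fewer than 5000 genes and under 5% mitochondrial reads. Seurat 5.3.0 HTODemux on the hashtag counts of all 4395 barcodes, followed by these filters, returned the 2668 deposited cells (481, 772 and 1415 from male mice 1, 2 and 3). All 2668 barcodes were in the larger matrix, with 0 differing entries over 16798 symbols, and 2665 had the same mouse by their highest hashtag. Hashtag doublets and cells past more than 1 gate were left out, and no doublet caller was run.

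Cells were classed by the marker gates in the text. The gates were T cells, at least 2 UMIs of Cd3d, Cd3e and Cd3g; B cells, at least 4 of Cd79a and Cd79b; precursors, at least 0.5% of UMIs from Elane, Mpo, Prtn3 and Ctsg; later neutrophils, at least 2% from S100a8 and S100a9; DCs, at least 3 UMIs of Flt3, Zbtb46, Xcr1, Clec9a, Cd209a and Ccr7 with at least 1% from class II genes; monocytes, at least 0.5% from Lyz2, a UMI of Csf1r or Ccr2, and at least 3 of Ly6c2, Plac8, Ace and Treml4. Counts were summed per mouse and class (61388 to 3462466 UMIs in the 27 sums of the 9 classes with at least 5 cells in each mouse) and tested in 1 fit with edgeR 4.0.16 (R 4.3.3), TMM factors, filterByExpr and Benjamini-Hochberg adjustment over 6374 genes at 0.05. The fit was tested on simulated data. DESeq2 1.42.0 and the other alternatives are given in the closing section. Sums of 1 mouse pair by animal: same-mouse deviations correlated between -0.111 and 0.314 over the 5 comparisons. Cells of 1 mouse are not replicates. The p-values rest on a spread between mice that was estimated over all 9 classes together, not in the compared classes alone. The main fit had no term for the mouse, so the sums of 1 mouse were treated as independent. Counting intervals are exact at the 95% level and, like floors of 3 UMIs, cover counting error only.

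Named genes were the 9 members, other MS4A superfamily genes, genes whose proteins are described with MS4A proteins, and the 3 genes most like each member among those with at least 100 UMIs, except that 1 gene is not reported here. The members and lists were chosen with earlier results of these data known.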

Additional observations from a re-analysis of the deposited data

Results flagged for a closer look

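Among the 164 unnamed cells, which enter no comparison, 29 had a UMI of Ncr1, a natural killer cell receptor. Ms4a4b was at 1379.9 CPM in them (238 UMIs), with 1173, 1407 and 1508.5 CPM in mice 1, 2 and 3 and a UMI in all 29 cells, which is above the 3 UMIs that a count of 0 allows and above the mean in T cells (724 CPM).

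Ms4a2, the beta chain of the high-affinity IgE receptor, was at 1384.6 CPM (55 UMIs) in the 4 unnamed cells with at least 2 UMIs of Mcpt8, a basophil protease. These cells came from 2 of the mice. These cells also had 15 UMIs of Ms4a3 (378 CPM). Both groups were chosen after the values were seen, and no difference from other classes was tested.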

How the results depend on the processing

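Of the 535 log2 folds of members recomputed under 14 alternatives, 524 kept their side of the threshold, 5 passed newly and 6 no longer passed, and no called fold changed sign. The count of genes called between Fcrls-only and Ccr2-only macrophages was 349, and became 556 with only the classes compared in the fit, 186 with cells thinned to 2000 UMIs and 189 in the female mice; it was 111 to 200 with 1 mouse left out, the lowest without mouse 2. The count of members called there was 1, and became 3 with no filter on low counts, 2 with the replicate block, 3 with only the classes compared and 2 in the female mice. For macrophages against monocytes the count of genes was 2504, and became 805 thinned and 1036 in the females, and 1632 to 2109 with 1 mouse left out, the lowest without mouse 3. Against DCs it was 2128, then 687 thinned and 1180 in the females. For monocytes against later neutrophils it was 2803, then 1279 thinned and 1215 in the females, and 1805 to 2473 with 1 mouse left out, the lowest without mouse 3. For B against T cells it was 1238, then 699 with only the classes compared and 513 thinned, and 632 to 1121 with 1 mouse left out, the lowest without mouse 3. Over 11 draws of the thinning, chosen after seeing that 1 draw moved the values, these counts ran from 179 to 229, 805 to 854, 687 to 737, 1274 to 1315 and 513 to 566, and the call of Ms4a7 between the macrophage states held in all 11. The causes were not tested, beyond the fewer samples or UMIs that an alternative leaves. The replicate block gave 441, 2567, 2224, 2918 and 1293 genes and changed the call of no member but Ms4a4c between the macrophage states. Keeping the neutrophils with Cd3d as later neutrophils, chosen after seeing the data, moved the adjusted p of Ms4a4c against DCs to 0.0508, and RLE factors moved it to 0.0501. Ms4a6c passed between B and T cells with no filter (log2 fold -2.39, adjusted p = 0.0194). A stricter macrophage gate (1% C1q) left 44 of 45 mean levels within 1 SD, the exception being Ms4a7 in monocytes at 24.2 CPM. Neutrophil precursors, with as few as 3 cells in a mouse, could not be tested.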
